A study of Mus musculus with 6 samples.

Results

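The genes of glycolysis and of the response to low oxygen were followed in single cells of the mouse lung: alveolar type II (ATII) cells, which make surfactant and can renew the alveolar surface. The members were a named list of 37 genes among the 52636 of the count matrix. They were listed by symbol and not by any measured value, though earlier results of these data were known when they were chosen. They fall into 20 genes of glucose uptake, glycolysis and lactate export, called glycolytic genes here, and 17 targets of the hypoxia-inducible factors (HIF) that stand outside that chain. Each symbol was found through its Ensembl identifier in the GENCODE annotation of the mouse build GRCm38. Aldoa has 2 identifiers in that annotation, whose counts were summed.

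Glycolysis turns glucose into pyruvate in a fixed series of steps, and lactate dehydrogenase then turns pyruvate into lactate, which monocarboxylate transporters carry out of the cell. HIF are transcription factors whose alpha subunits are hydroxylated by the prolyl hydroxylases Egln1 to Egln3 when oxygen is present, and are then destroyed. With little oxygen the alpha subunits pair with Arnt, bind a short core sequence in promoters and enhancers, and raise many glycolytic genes together with genes for mitophagy, vessel growth and collagen folding. Many HIF targets also answer to growth signals and stress without low oxygen.

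The study asked, per its title, how ATII cells respond to IL-4 during ageing. The labels list 6 samples, 3 of gene expression and 3 of cell tags (hto), each the only replicate of its group, and all with the genotype IL4Ra WT. The groups are ATII cells freshly sorted at day 0 from young and old mice, cells of young and old mice after culture to day 13, and cells of young mice after culture to day 13. Cultures were spheres grown without serum or feeder cells. Some wells received 10 ng/ml of cytokine from day 3 and the others its carrier PBS. The design text gives the cytokine another interleukin number than the IL-4 of the title. The treatment of each sample is labelled as mixed. Live cells of several mice or wells were thus pooled in 1 droplet run of 3 prime ends (10x v3.1). The tag data were not used here, so no cell was assigned to a mouse, an age or a treatment.

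The deposited matrix holds 36584 barcodes in 3 libraries, marked by a token that matches no label. They are called A, B and C in order of appearance, and which group each one holds is not known. The matrix was therefore treated as 1 pooled sample with no test between libraries. After cells with under 1000 UMIs (unique molecular identifiers, which count captured RNA molecules), under 500 genes or over 15% mitochondrial UMIs were removed, 36540 cells were left. Library A had 16367 cells with a median of 3749 UMIs, library B 5593 cells with 8349 and library C 14580 cells with 3341, from 63658436, 48676834 and 53329664 UMIs in all. Each pair of libraries shared between 20 and 67 barcodes. All 12 ATII markers checked reached 20 CPM (UMIs per 1000000) in every library. Sftpc, the surfactant protein that defines ATII cells, stood at 255076, 128764 and 116228 CPM in A, B and C. Of the other cell types' markers, Scgb1a1 of airway secretory cells reached 2503 CPM in A against 85.7 in B and 30.2 in C. The ciliated list summed to 118, 3.08 and 10.4 CPM in A, B and C, and the endothelial list to 88.8 CPM in A, nearly all Pecam1, and to under 1 in B and C. The T or B cell list summed to 28.1, 132 and 145 CPM, nearly all Cd79b (25.9, 131 and 144). The fibroblast, basal, neutrophil and erythroid lists summed to under 1 CPM in each library. The part of these markers in the levels below was not tested. Cells with an Mki67 or Top2a UMI, called dividing here, numbered 171 in A, 1512 in B and 2558 in C. Cells with at least 1% of their UMIs from Retnla numbered 2, 2310 and 7595. Folds were therefore taken between classes of cells inside library B and inside library C.

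The promoters of several members are shown first, because members with and without matches to the HIF core shared directions in the results that follow. RefSeq windows from 250 bases before to 50 bases after the gene start on GRCm38.p6 were found for 34 of the 37 members. Only the first window listed for each member was searched, on both strands, for ACGTG and GCGTG, the 2 forms of the HIF core. The palindrome CACGTG, which other factors also bind, was counted on both strands. A match was found in 27 of 34 windows (79.4%), against 43.8% of 27025 windows taken 1 per symbol. By list, 14 of 15 HIF targets and 13 of 19 glycolytic genes had one. At least 2 matches were found in 58.8% of the members' windows and in 20.8% of all windows. A match describes these letters only, and gene families were not set apart in the background. Both forms of the core contain CG, and the background was not matched for CG content or for expression. The part of these in the difference was not tested.

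The stretches below, each of 60 bases and 5′ to 3′ on the gene's strand, show where matches lie. Capitals mark matches, which read CACGT or CACGC where the core is on the other strand. The first 4 are HIF targets that passed the size rule between classes of cells: Adm at chr7:110627558-110627617 (plus strand), Bnip3 at chr7:138909582-138909641 (minus), Egln3 at chr12:54204054-54204113 (minus) and Ero1l, listed by RefSeq as Ero1a, at chr14:45318601-45318660 (minus). The next 4 are glycolytic genes that followed them: Slc2a1 at chr4:119108669-119108728 (plus), Pgk1 at chrX:106186932-106186991 (plus), Ldha at chr7:46845730-46845789 (plus) and Slc16a3 at chr11:120949003-120949062 (plus). Ldhb, at chr6:142508051-142508110 (minus), is shown because its level ran the other way.
Adm: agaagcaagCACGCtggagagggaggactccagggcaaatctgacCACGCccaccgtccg
Bnip3: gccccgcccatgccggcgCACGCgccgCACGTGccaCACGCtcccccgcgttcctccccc
Egln3: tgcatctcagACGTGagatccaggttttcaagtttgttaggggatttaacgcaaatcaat
Ero1l: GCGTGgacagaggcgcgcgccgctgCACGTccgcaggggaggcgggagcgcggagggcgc
Slc2a1: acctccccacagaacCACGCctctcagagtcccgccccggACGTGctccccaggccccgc
Pgk1: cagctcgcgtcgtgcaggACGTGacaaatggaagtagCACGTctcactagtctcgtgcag
Ldha: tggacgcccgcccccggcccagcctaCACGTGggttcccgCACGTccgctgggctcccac
Slc16a3: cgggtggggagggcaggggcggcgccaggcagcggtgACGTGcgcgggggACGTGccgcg
Ldhb: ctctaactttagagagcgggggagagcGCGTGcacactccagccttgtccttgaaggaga

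Across its whole window Ldha held 7 matches, 2 pairs of them from CACGTG, the highest number among the members. Bnip3 held 5, and the isoenzyme Ldhb held 1. No match was found in the searched windows of Hk1, Gpi1, Aldoa, Tpi1, Eno2, Pkm or Vegfa. Aldoa had 3 windows and Hk1, Pkm and Vegfa 2 each, so their other starts were not searched. Aldoa, Gpi1, Tpi1 and Pkm had no match in the window searched, and Ldha, Pgk1 and Slc2a1 had at least 2. All of these had higher levels in the cells richest in HIF target UMIs, as described further on.

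Most members stood lowest in library A. Of the 37 members, 29 reached 20 CPM in at least 1 library and are called measured: 17 of the glycolytic genes and 12 of the HIF targets. Of these, 23 were lowest in A (14 glycolytic genes and 9 HIF targets) and 6 were highest there (Hk1, Hk2, Ldhb, Pfkfb4, Vegfa and P4ha1). Of all 6060 genes measured in the same way, 44.1% were lowest in A and 49.3% highest there, so the members were lowest in A more often than genes at large. The 20 glycolytic genes together took 0.156% of UMIs in A, 1.58% in B and 1.57% in C. The 17 HIF targets summed to 796, 3684 and 3155 CPM. With no replicate and no known group, these are levels of 3 libraries and carry no test. Sftpc, Malat1 (19055, 6583 and 5247 CPM) and the mitochondrial share (2.51%, 0.830% and 0.634% of UMIs) were higher in A as well. Their part in these levels was not tested.

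In the pay-off part of glycolysis, Gapdh, which oxidises glyceraldehyde phosphate, had 299 CPM in A (95% exact Poisson interval 295 to 303), 5398 in B (5378 to 5419) and 6257 in C (6235 to 6278). Such intervals cover counting error only. Pgk1, the first step that yields ATP, had 47.9, 1033 and 1166 CPM in A, B and C. Pkm, the pyruvate kinase, had 139, 1034 and 1187. These enzymes, and the mutase Pgam1 at 43.2, 519 and 481 CPM, were far apart between A and the other libraries and close between B and C. Eno1, the enolase, had 1.96, 54.6 and 193 CPM and was the one among them with a wide gap between B and C. Eno1 is nearly identical to the retrocopy Eno1b, and Gapdh and others have processed pseudogenes, so the split of reads between copies is uncertain. UMIs of 3 prime ends are not scaled to gene length, so levels are compared here across libraries and cells, not between genes.

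In the preparatory part, Aldoa, the main aldolase, had 175 CPM in A, 3051 in B and 2353 in C. The isomerases behaved alike, with Gpi1 at 79.6, 596 and 536 CPM and Tpi1 at 90.8, 1103 and 1024 CPM. The phosphofructokinases Pfkl (16.5, 62.4 and 88.2 CPM) and Pfkp (9.27, 65.5 and 44.9 CPM) were also lowest in A, in the opposite order between B and C. The hexokinases, which trap glucose in the cell, ran the other way: Hk1 had 37.7, 29.3 and 21.4 CPM and Hk2 56.9, 35.1 and 42.7 CPM in A, B and C. The glucose transporter Slc2a1 had 22.0, 44.5 and 34.9 CPM. The second transporter, Slc2a3, reached 17.2 CPM in B and only 1.30 and 0.975 CPM in A and C, so it was near absent outside B. Aldoc, the minor aldolase, had 11.95, 45.5 and 45.1 CPM.

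At the end of the pathway the 2 subunits of lactate dehydrogenase had opposite orders. Ldha, which favours lactate formation, had 224 CPM in A, 2465 in B and 2055 in C, while Ldhb, the heart-type subunit, had 298, 135 and 69.0. Of the UMIs of both, Ldha took 43.0% in A (95% Clopper-Pearson interval 42.4 to 43.5), 94.8% in B and 96.8% in C. The lactate exporter Slc16a3 had 0.346 CPM in A (0.216 to 0.523), 70.0 in B and 81.4 in C. In A it was thus close to 0.

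Among HIF targets, Egln3 was close to absent in A, and Bnip3 was several times higher in B and C than in A. Their partners differed less. Egln3, a prolyl hydroxylase strongly induced by HIF, had 0.157 CPM in A (10 UMIs), 27.6 in B and 32.0 in C, while Egln1, the main oxygen sensor, had 64.6, 98.2 and 76.8. Egln3 took 0.243% of the UMIs of both in A, 22.0% in B and 29.4% in C. The mitophagy receptor Bnip3 had 43.4, 218 and 278 CPM and its relative Bnip3l 88.0, 130 and 105. Bnip3's share of the pair was 33.0%, 62.7% and 72.5%. So Egln3 and Bnip3 made up more of their pairs in B and C than in A.

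The other HIF targets had mixed orders. Mif, a cytokine and tautomerase and the most abundant target by UMIs, had 115, 2683 and 2234 CPM in A, B and C. Ero1l, an oxidase of disulfide formation in the endoplasmic reticulum, had 39.9, 161 and 99.0. The collagen prolyl hydroxylases differed from each other: P4ha1 had 174, 142 and 88.7 CPM and P4ha2 40.7, 57.4 and 61.2. Vegfa, the vascular growth factor, was highest in A with 102, 35.8 and 43.1 CPM. Pfkfb4, which sets the level of an activator of phosphofructokinase, was highest in A too with 48.9, 14.8 and 18.6. Pdk1, which inhibits pyruvate dehydrogenase, had 14.2, 26.8 and 26.0, and Ddit4, an inhibitor of mTORC1, had 32.9, 42.2 and 33.0, with A and C overlapping. Slc2a3, Pfkm, Eno2, Pfkfb3, Adm, Ankrd37, Car9 and Ndrg1 were under 20 CPM in all 3 libraries. Between B and C the intervals were apart for 26 of the 29 measured members, 15 higher in B and 11 in C. Of all 6060 measured genes, 33.2% had an interval in B above that in C and 33.9% one in C above that in B.

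**Figure D1:**
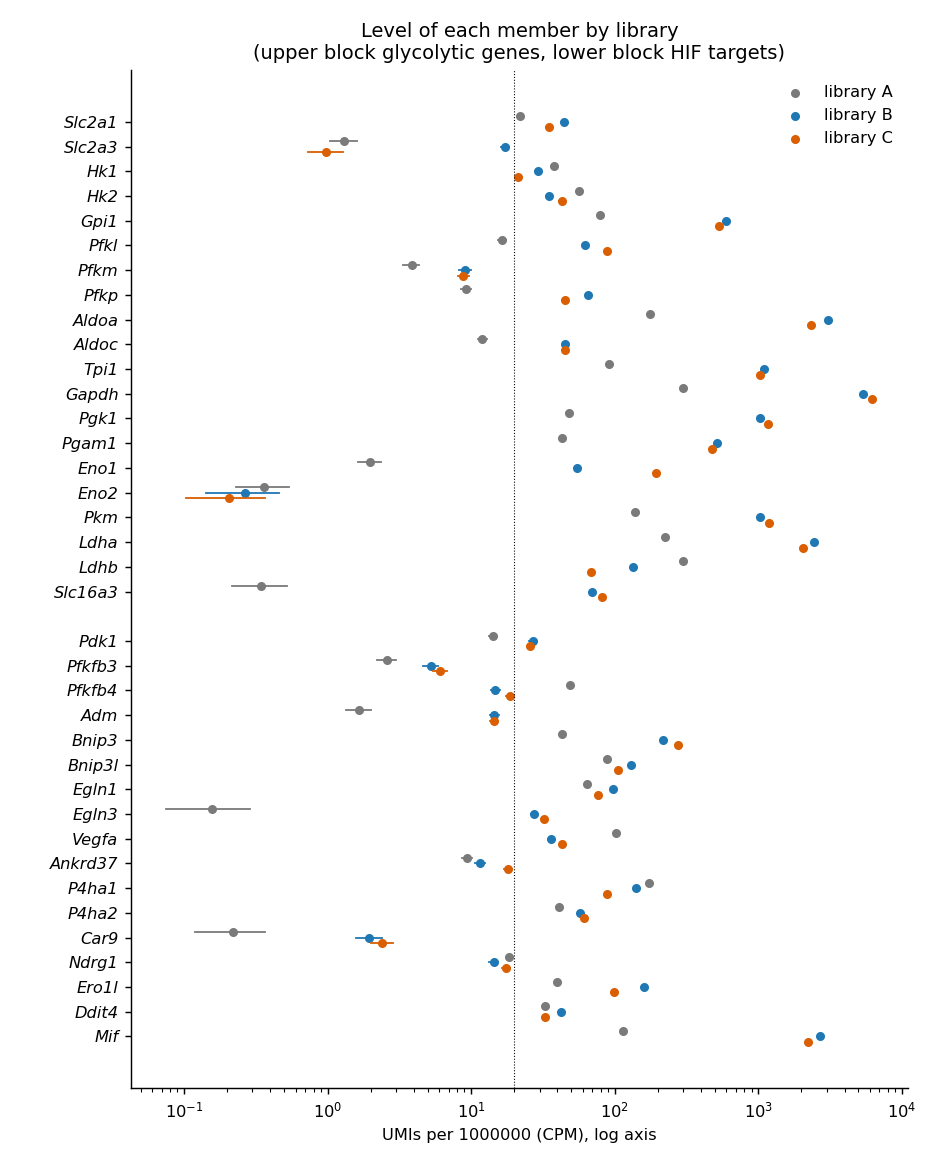
Level of each of the 37 members in libraries A (grey), B (blue) and C (orange), as CPM on a log axis with 95% exact Poisson intervals; the upper block holds glycolytic genes, the lower block HIF targets, and the dotted line marks 20 CPM. Grey points lie left of both others for 23 of the 29 measured members, with Ldhb, Hk1, Hk2, Pfkfb4, Vegfa and P4ha1 reversed.

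Genes of neighbouring pathways were taken from lists chosen by function. Of the oxygen sensing list, Epas1, which encodes HIF-2 alpha, had 252 CPM in A, 10.9 in B and 8.12 in C, while Hif1a had 76.5, 90.2 and 75.5. The serine synthesis gene Phgdh, which draws on a glycolytic intermediate, had 0.864, 164 and 119 CPM. Among genes of pyruvate use, Mpc1, a subunit of the mitochondrial pyruvate carrier, had 182, 489 and 264 CPM. Its partner subunit Mpc2 was highest in A instead, with 268, 173 and 155 CPM. The whole list of pyruvate use and the citric acid cycle, 19 genes, summed to 1295, 2045 and 1596 CPM.

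Cells rich in Retnla had lower levels of HIF targets and of most glycolytic genes in both libraries. Retnla encodes a secreted protein that IL-4 induces through STAT6, but a cell's treatment is not known here, so the classes below are classes of Retnla and not of treatment. Cells with at least 1% of UMIs from Retnla (2310 in B, 7595 in C) were set against cells with under 0.1% (1567 and 6018). A gene was called where it differed at least 2-fold (log2 fold of at least 1 in size, with 1 CPM added to each level) in the same direction in B and C and reached 20 CPM in either class. This is a rule of size and not a test. B and C are 2 libraries and not replicates of 1 group. By it, 0 members were higher and 5 were lower, namely Gapdh and the HIF targets Bnip3, Bnip3l, Egln3 and Ndrg1. Over all 4512 genes measured, 1.62% were higher and 1.97% were lower.

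Gapdh (chr6:125161715-125166467, minus strand) had 3969 CPM in Retnla-rich and 9481 in Retnla-poor cells of B, and 4194 against 8838 in C. Its log2 folds were -1.26 and -1.08. With the total scaled by TMM, or taken without surfactant genes and Retnla, Gapdh no longer passed in both libraries, at mean log2 folds of -1.05 and -1.06. Of the 17 measured glycolytic genes, 15 had negative log2 folds in both libraries, with medians of -0.57 in B and -0.53 in C, against -0.13 and -0.07 over all genes. Pgk1 (852 against 1574 CPM in B, 777 against 1681 in C) and Pkm (833 against 1686 and 918 against 1541 CPM) were next in size and did not reach the rule in both.

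Ldhb was the measured glycolytic gene with a positive log2 fold in both libraries. It had 149.8 CPM in Retnla-rich and 72.0 in Retnla-poor cells of B, and 77.3 against 54.7 in C, while Ldha had 2306 against 3269 and 1869 against 2286. The 2 subunits thus moved in opposite directions, as they did between library A and the others. Ldhb passed the size rule in B alone. Hexokinases hardly differed: the log2 folds of Hk1 were 0.13 and -0.26 and those of Hk2 -0.01 and -0.16. Slc2a3, under 20 CPM, had 434 UMIs in Retnla-rich and 36 in Retnla-poor cells of B (19.6 and 3.27 CPM) and 48 against 3 UMIs in C.

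HIF targets had larger differences. The stress-induced gene Ndrg1 (chr15:66929318-66969640, minus strand) had 2.44 CPM in Retnla-rich and 40.3 in Retnla-poor cells of B, and 2.68 against 35.4 in C. Its log2 folds were -3.59 and -3.31. Ndrg1 passed the level filter through the Retnla-poor class, and so did Egln3 in library C, so their calls follow in part from the filter. Egln3 (chr12:54178981-54203860, minus strand) had 20.2 against 46.2 CPM in B and 17.2 against 48.1 in C. Bnip3 (chr7:138890836-138909519, minus strand) had 161.9 against 347 CPM and 163.9 against 416 CPM, with log2 folds of -1.10 and -1.34. Bnip3l (chr14:66985239-67008877, minus strand) had 94.5 against 219 CPM and 68.9 against 149 CPM. Both mitophagy receptors thus passed the rule in each library.

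All 12 measured HIF targets had negative log2 folds in both libraries, with medians of -0.88 and -1.14. Vegfa (-0.89 and -1.29), Ero1l (-0.85 and -1.21) and P4ha2 (-0.97 and -1.18) passed the size in C alone. Ddit4 (-0.15 and -0.25) and Mif (-0.38 and -0.44) had the smallest folds on average over both libraries. Of the unmeasured HIF targets, Adm, the vasodilator adrenomedullin, had 8.39 against 26.8 CPM in B and 7.79 against 19.7 in C, and Pfkfb4 was the one with more in Retnla-rich cells, at 17.2 against 14.1 and 22.3 against 14.4 CPM.

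Cells with 0.1% to 1% of Retnla (1716 in B, 967 in C) did not take the same place in both libraries. In B their glycolytic genes summed to 14092 CPM, near the 13047 of Retnla-rich cells and far from the 23609 of Retnla-poor cells. In C the sums were 20128, 11659 and 20771 CPM, so that the middle range stood near the Retnla-poor cells. Bnip3 showed the same split, with 207 CPM in the middle range of B and 452 in that of C. The level in the middle range therefore depended on the library.

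**Figure D2:**
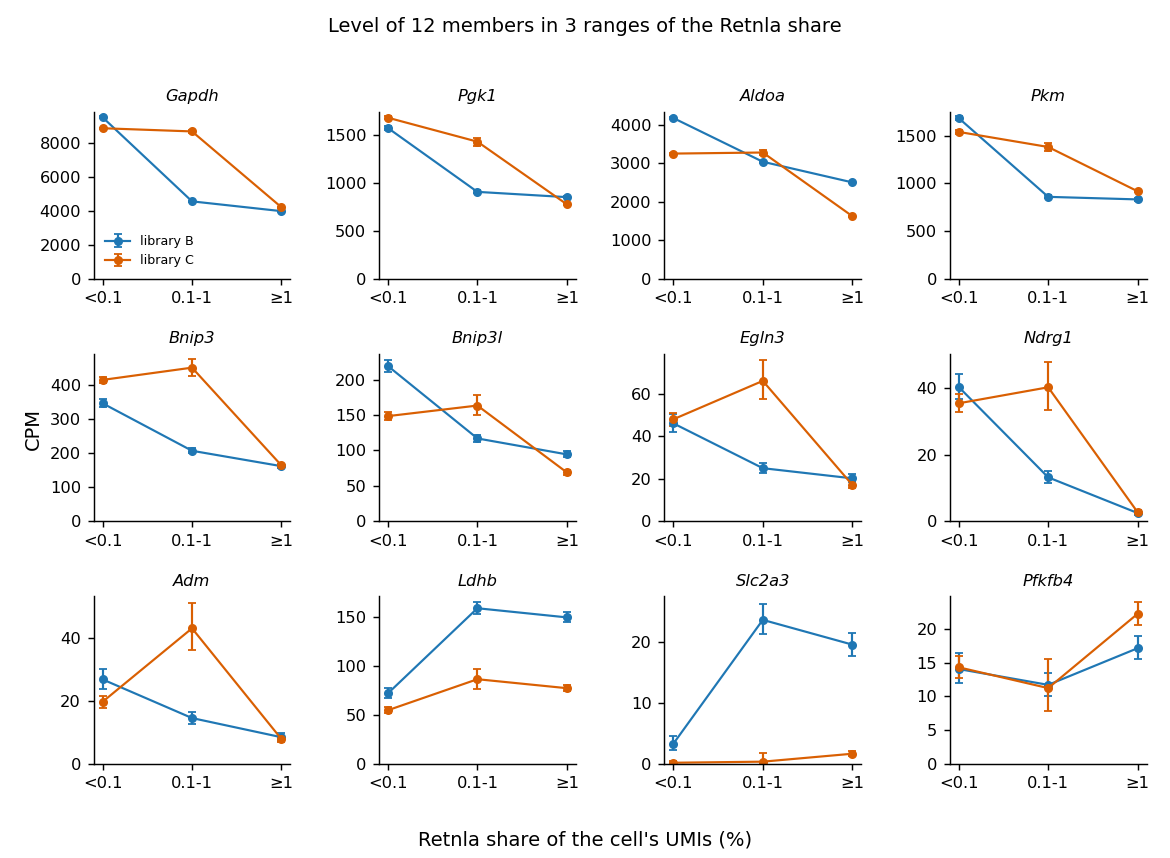
Level (CPM, with 95% exact Poisson intervals) of 12 members, picked to show both directions, in cells with under 0.1%, 0.1% to 1% and at least 1% of UMIs from Retnla, in library B (blue) and library C (orange). In B, Gapdh has 9481 CPM in the first and 3969 in the last range, while Ldhb has 72.0 and 149.8, and the middle range of C lies near its Retnla-poor cells for most genes.

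Retnla-rich and Retnla-poor cells also differed in other ways, whose part in these folds was not tested. Cells with 2 or more UMIs of Krt19, a keratin of the transitional state, were 36.0% of Retnla-rich and 65.1% of Retnla-poor cells in B, and 13.5% and 39.1% in C. The 12 ATII markers summed to 179894 against 133218 CPM in B and to 151148 against 130497 in C. Retnla-rich cells had less of the 9 ATI markers (954 against 2303 CPM in B and 1519 against 3239 in C), of the 10 transitional markers (1764 against 4213 and 1923 against 3253) and of Malat1 (5599 against 7267 and 3968 against 6865). They had more of the airway secretory list (192 against 43.4 and 87.8 against 18.1 CPM) and of the T or B cell list (179.7 against 57.8 and 206 against 61.9). Median UMIs were 9319 against 6468 and 3636 against 3123. Of neighbouring pathways, 0 of 14 measured genes of pyruvate use and the citric acid cycle were called, with medians of 0.19 and 0.05, and 0 of 10 of the pentose phosphate pathway and side branches, with medians of 0.02 and 0.16.

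No member passed the size rule in both libraries between dividing and other cells. Of 17 measured glycolytic genes and 11 measured HIF targets, 0 were higher and 0 were lower in the 1512 and 2558 dividing cells than in the 4081 and 12022 others. Over all 4631 genes measured, 4.45% were higher and 0.238% were lower. At these shares few calls would fall among 28 measured members, so a count of 0 is not a result about them. The medians of the glycolytic log2 folds were 0.03 in B and -0.14 in C, against 0.15 and 0.18 over all genes, so the glycolytic genes lay slightly below the rest.

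Within the pathway the steps differed in sign. Hk2, a hexokinase known from proliferating cells, had 43.3 CPM in dividing and 31.1 in other cells of B, and 57.6 against 37.8 in C. Its log2 folds of 0.46 and 0.59 were the highest of the glycolytic genes. Slc16a3 (0.21 and 0.17), Tpi1 (0.08 and 0.12) and Ldha (0.03 and 0.05) were near 0. Aldoa was lower in level in dividing cells, at 2388 against 3376 CPM in B and 1604 against 2600 in C, and so were Aldoc (-0.46 and -0.74) and Gapdh (-0.40 and -0.50). None of these reached a 2-fold difference.

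The 11 measured HIF targets all had negative log2 folds in dividing cells, with medians of -0.20 and -0.39, against 0.15 and 0.18 over all genes. The sizes were small: Bnip3 had 187 against 233 CPM in B and 202 against 304 in C. Larger gaps were found in 2 unmeasured targets. Ndrg1 had 6.43 against 18.3 CPM in B and 5.13 against 21.7 in C, and Adm had 8.68 against 17.4 and 7.92 against 16.6. In C alone Ndrg1 passed the size rule, and it reached 20 CPM there only in the other cells. Dividing cells had more UMIs each (medians 10267 against 7741 in B and 5214 against 3141 in C), and fewer summed transitional markers (1982 against 2793 and 1854 against 2740 CPM). The part of these in the folds was not tested.

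Cells with Krt19 had higher levels of HIF targets, and smaller differences in glycolytic genes. Krt19 is one of the keratins of the transitional state between ATII and ATI cells. Cells with 2 or more Krt19 UMIs (2785 in B, 3709 in C) were set against cells with 0 (1353 and 6915). Of 13 measured HIF targets, Adm, Ndrg1 and Ero1l were higher and 0 were lower, and of 17 measured glycolytic genes 0 were called in either direction. Over all 4352 genes measured, 1.03% were higher and 0% were lower.

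Ero1l (chr14:45283087-45318771, minus strand) had 214 CPM in Krt19-positive and 98.3 in Krt19-negative cells of B, and 201 against 52.0 in C, with log2 folds of 1.11 and 1.93. Adm (chr7:110627661-110629820, plus strand) had 21.9 against 6.005 CPM in B and 35.9 against 4.72 in C. Ndrg1 had 24.9 against 2.91 and 52.1 against 3.23. Adm and Ndrg1 passed the level filter through the Krt19-positive class, where they are high, so their calls follow in part from the filter. The median log2 fold of the HIF targets was 0.74 in B and 1.28 in C, against 0.01 and 0.04 over all genes.

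Library C had the larger differences. There 10 HIF targets passed the size, against 3 in B, and 4 glycolytic genes, against 0 in B. Of all genes measured in one library, 2.39% passed upwards in C and 1.04% in B. Bnip3 had 273 against 149 CPM in B and 509 against 173 in C. Vegfa had 42.9 against 28.1 and 75.8 against 26.5, and Egln3 33.9 against 18.8 and 62.5 against 17.9. Gapdh had 6567 against 3981 CPM in B and 10126 against 4434 in C, log2 folds of 0.72 and 1.19. In both libraries 16 of 17 glycolytic genes had positive folds, and Ldhb was the exception (-0.09 and -0.15). A cell's Krt19 count depends on its depth. The classes' median UMIs were 8518 against 7854 in B and 3481 against 3207 in C. Krt19 itself stood at 477 CPM in Krt19-positive cells of B and 895 in those of C. The same cut of 2 UMIs thus did not set the same class in both libraries. The part of this in the larger differences of C was not tested.

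**Figure D3:**
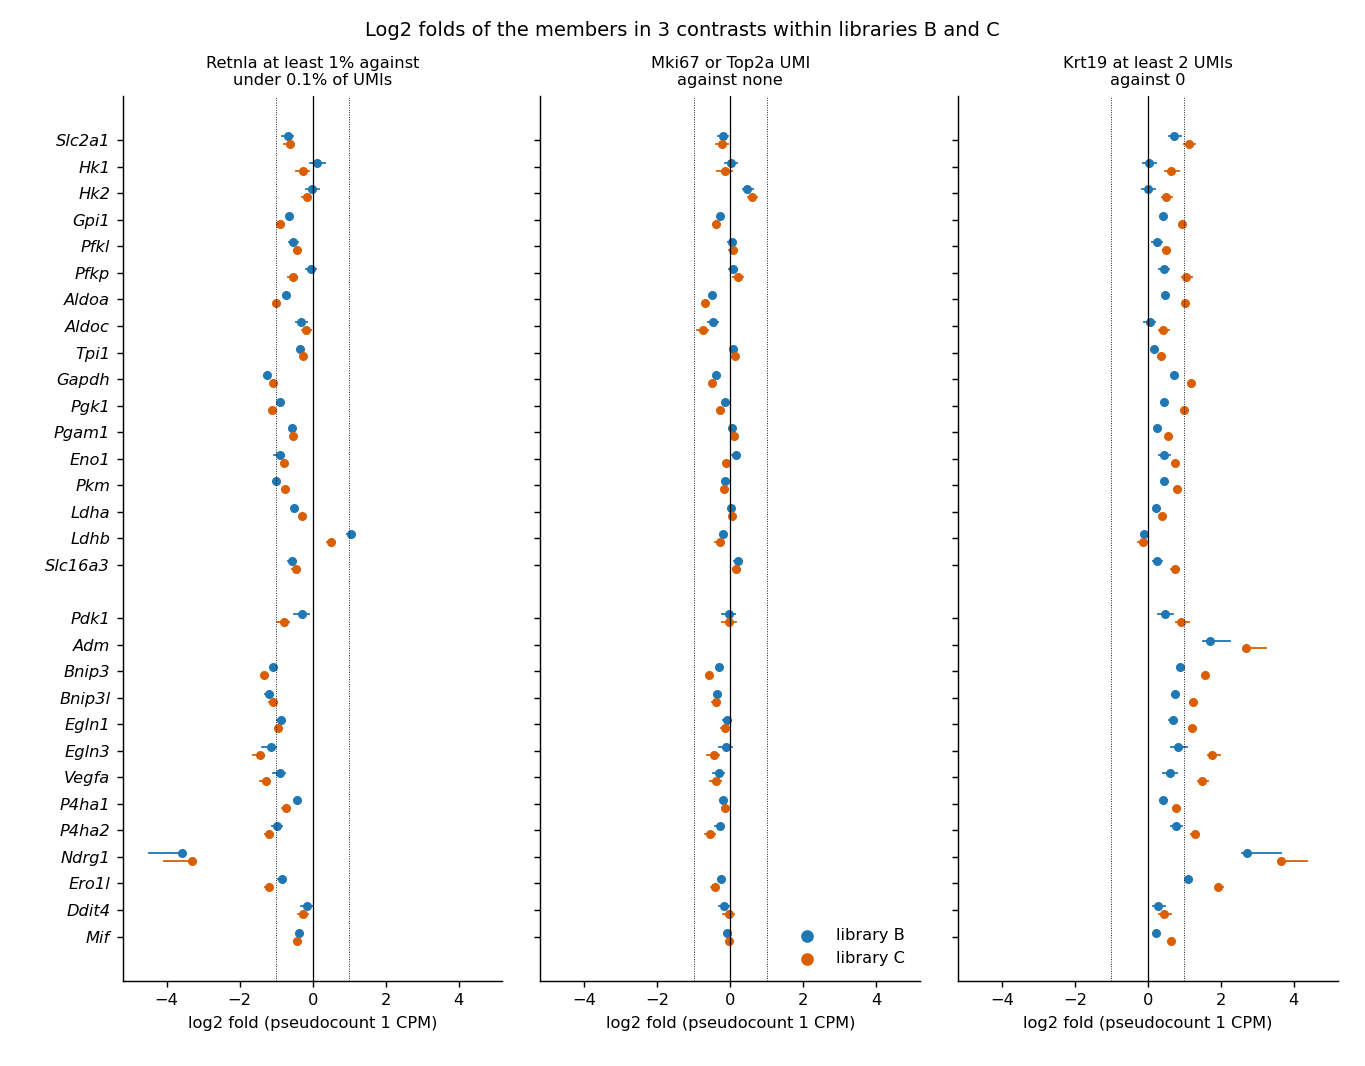
Log2 fold of each member that reached 20 CPM in the contrast, in library B (blue) and library C (orange), for cells with at least 1% against under 0.1% Retnla, for dividing against other cells, and for cells with at least 2 against 0 Krt19 UMIs. Lines are 95% intervals of the count ratio without the added 1 CPM, so for low genes such as Ndrg1 and Adm they lie further from 0 than the points; dotted lines mark 2-fold, points of HIF targets lie left of 0 in the first 2 panels and right of 0 in the third.

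The Krt19 contrast was repeated in cells that were not dividing and had under 1% Retnla (1489 against 417 cells in B, 2340 against 1995 in C). Here 5 HIF targets were higher, 0 were lower, and 0 of 17 glycolytic genes were called. Over 4248 genes, 1.37% were higher and 0.0942% were lower. The 5 were Adm (34.3 against 4.95 CPM in B, 49.2 against 5.32 in C), Ndrg1 (46.0 against 6.71 and 84.3 against 9.78), Ero1l (276 against 109 and 276 against 61.1), Bnip3 (353 against 164 and 708 against 249) and Bnip3l (218 against 90.4 and 234 against 98.4). Here too Adm and Ndrg1 passed the level filter through the Krt19-positive class, so their calls follow in part from the filter. The mitophagy receptors joined the list once Retnla-rich and dividing cells were set aside. Retnla still differed between these classes, at 2958 CPM with Krt19 against 4205 without in B, and 643 against 980 in C. The 12 ATII markers summed to 132869 against 176107 CPM in B and 100261 against 154657 in C. The part of both in these folds was not tested. Gapdh came close in B with a log2 fold of 0.96 (interval 0.93 to 0.99), and had 1.22 in C. The count of HIF targets was 8 with TMM factors or with 3 Krt19 UMIs as the limit.

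The differences by Krt19 were widest in nondividing cells with under 1% Retnla. In those cells the glycolytic genes summed to 14169 CPM without Krt19 and 22293 with it in B, and to 15273 and 29261 in C. In nondividing Retnla-rich cells the sums were 12806 and 14016 CPM in B, and 10845 and 14478 in C. In dividing cells with under 1% Retnla they were 12775 and 16432 in B, and 14185 and 18938 in C. The 16 HIF targets without Mif followed the same order. They summed to 804 and 1567 CPM in nondividing cells of B with under 1% Retnla. In nondividing, Retnla-rich cells of B they summed to 679 and 881 CPM. In C these sums were 794 and 2177, and 513 and 842. The class with Krt19, no division and under 1% Retnla was thus the highest of 8 for both lists in both libraries.

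**Figure D4:**
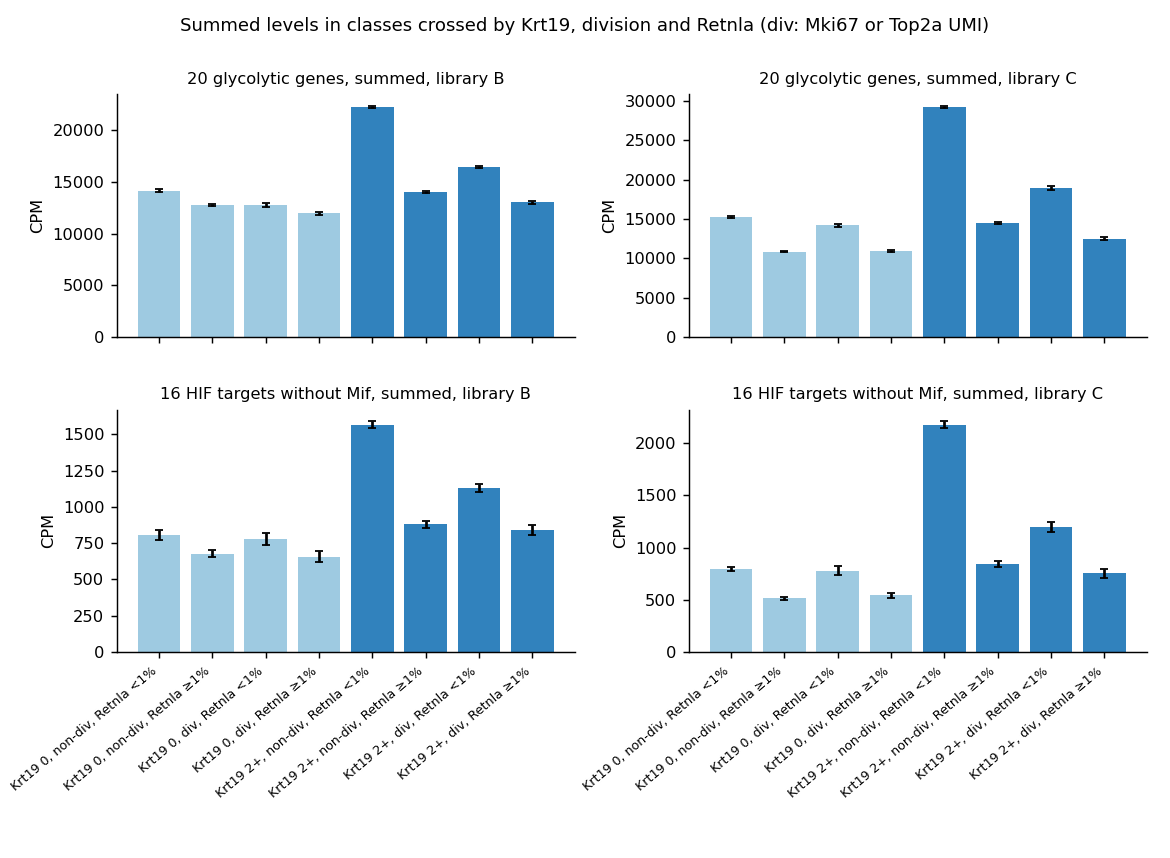
Summed CPM of the 20 glycolytic genes (top) and of 16 HIF targets without Mif (bottom) in 8 classes crossed by Krt19 (0, pale; 2 or more UMIs, dark), division and Retnla (under or at least 1%), in library B (left) and library C (right). Bars are sums with 95% exact Poisson intervals, and the dark bar of nondividing cells with under 1% Retnla is the tallest in each panel, at 22293 and 29261 CPM for the glycolytic genes.

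Krt19-positive cells also had more of the transitional markers as a whole, 10 genes that summed to 3347 against 1524 CPM in B and 4219 against 1697 in C, and less of the 12 ATII markers (149483 against 177427 and 114551 against 154002 CPM). The 9 ATI markers summed to 1533 against 1041 and 2926 against 1907 CPM. Malat1, a nuclear RNA, had 7149 against 6206 and 6571 against 4678 CPM. Their part in the folds was not tested. Of 14 measured genes of pyruvate use and the citric acid cycle 0 were called, with medians of -0.01 and 0.00.

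Glycolytic genes and HIF targets were high in the same cells. Cells of each library were ranked by the summed share of UMIs of the 17 HIF targets and cut into quintiles, so the targets themselves are not compared. The glycolytic genes, which took no part in the rank, summed to 9582 CPM in the lowest and 32461 in the highest quintile of B, and to 6016 and 33576 in C. Of 17 measured glycolytic genes 14 were higher in both libraries and 0 were lower, with median log2 folds of 1.51 and 2.36. Over all 4292 genes measured, 2.94% were higher and 0.396% were lower. Cells share depth and library between both lists, and a cell's shares of UMIs compete for 1 total, so these folds are a description.

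The lactate exporter Slc16a3 (chr11:120948480-120960868, plus strand) had the largest fold, from 20.3 to 128.8 CPM in B and from 6.66 to 178.8 in C, log2 folds of 2.61 and 4.55. Gapdh went from 3069 to 13817 CPM in B and from 2486 to 15477 in C. Pgk1 went from 536 to 2063 and from 344 to 2488, and Slc2a1 from 27.6 to 95.3 and from 13.5 to 83.1. Uptake, the middle of the pathway and export were thus all higher in the top quintile. In C, Slc16a3, Slc2a1 and Pfkp passed the level filter through the highest quintile, where they are high.

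The others among the 14 were Gpi1, Pfkl, Pfkp, Aldoa, Aldoc, Tpi1, Pgam1, Eno1, Pkm and Ldha. Their log2 folds lay between 1.21 (Pfkl) and 1.98 (Eno1) in B and between 1.61 (Aldoc) and 3.01 (Pfkp) in C. Ldha differed less than Gapdh in both, with 1517 and 3982 CPM in B and 730 and 3421 in C. The hexokinases did not pass in both: Hk1 had log2 folds of 0.38 and 0.99 and Hk2 0.47 and 2.05. Ldhb was the measured gene with less in the top quintile, at 156.9 and 91.0 CPM in B and 88.0 and 60.5 in C.

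Mif holds most of the HIF target UMIs, so the rank was repeated with the other 16. The glycolytic sums then went from 11769 to 29168 CPM in B and from 9571 to 31232 in C, and most of the difference lay between the fourth and the highest quintile (15912 and 29168 CPM in B, 15779 and 31232 in C). Slc16a3 was higher in each quintile than in the one before, at 33.7, 51.5, 64.7, 100.0 and 115.9 CPM in B and 30.8, 47.2, 73.3, 96.9 and 166.2 in C. Ldhb went from 151.0 to 100.8 CPM in B and from 82.8 to 62.2 in C.

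**Figure D5:**
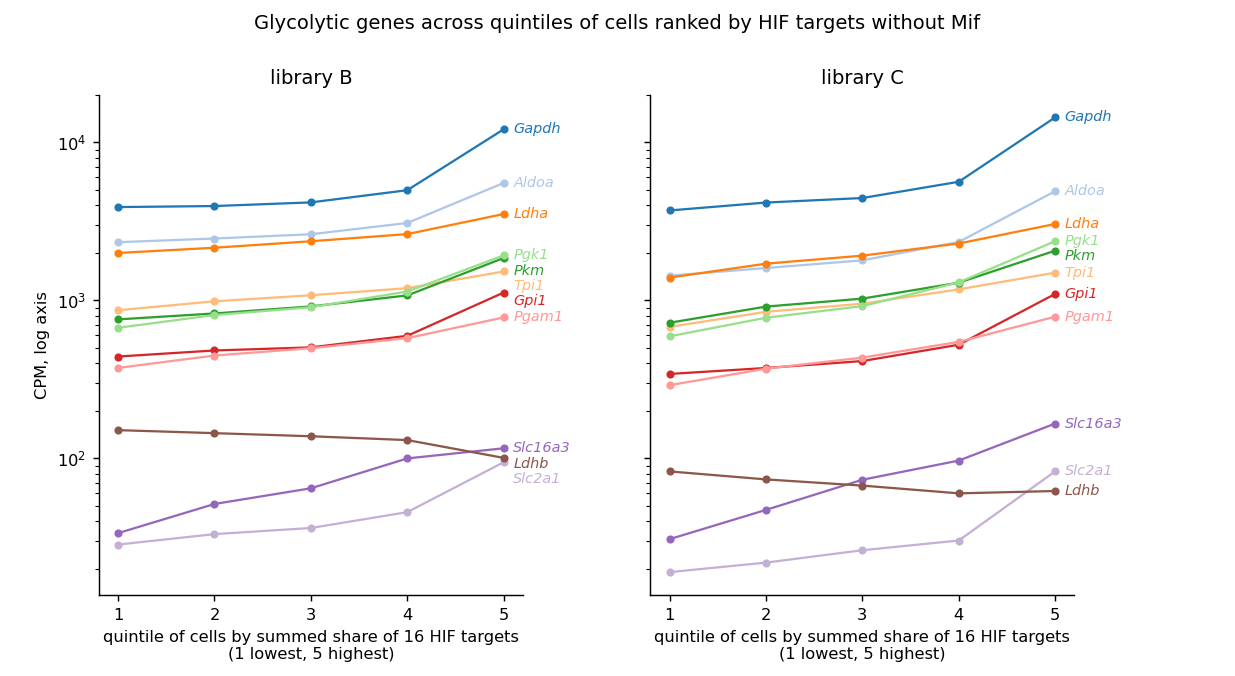
Level (CPM, log axis) of 11 glycolytic genes in quintiles of cells ranked by the summed share of 16 HIF targets without Mif, in library B (left) and library C (right); points are sums over 1118 to 1120 cells in B and 2916 in C. Most lines are steepest between the fourth and the highest quintile, Slc16a3 is higher at each step, and Ldhb is lower at the right end than at the left.

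The highest quintile by all 17 targets differed from the lowest in other ways, and their part was not tested. Cells with 2 or more Krt19 UMIs made up 74.6% of the highest and 39.6% of the lowest quintile in B, and 52.6% and 13.3% in C. Cells with at least 1% Retnla were 19.1% against 46.8% and 27.8% against 68.9%. Sftpc was lower, at 82545 against 148587 CPM in B and 76048 against 156335 in C. Median UMIs were 5788 against 8646 in B and 3059 against 2954 in C, so the shallower class was not the same in the 2 libraries. Malat1 had 9016 against 7068 and 7193 against 5732 CPM. Of 15 measured genes of the other HIF targets, 10 were higher. Of 15 measured genes of pyruvate use and the citric acid cycle 0 were called (medians -0.22 and 0.07), and of 10 of the pentose phosphate pathway and side branches 0 were called (medians -0.02 and 0.57).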

How the data were processed

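The authors deposited 1 matrix of whole UMI counts per gene and barcode, not normalized. Cell Ranger 6.0.1 and bcl2fastq are named in the submitters' processing notes, with GRCm38 and mm10 as builds. Cell calling and any removal of doublets are not given in the sources used here. Of the gene identifiers, 52403 had a GENCODE symbol and 233 did not (0.0209% of UMIs). Cell filters removed 44 barcodes. No doublet caller was run, and an alternative left out the 5% of cells with the most UMIs in each library. A class's CPM is its summed UMIs of a gene per 1000000 of its UMIs. Log2 folds used a pseudocount of 1 CPM, and their 95% intervals are exact conditional intervals of the count ratio. With 1 pooled sample no test between samples was run. The fold procedure was tested on simulated data. The members, the lists of other pathways and markers, and the classes were chosen with earlier results of these data known. Members past the size rule in both libraries are named with values, up to 12 per list, and up to 5 genes of other lists. Alternatives changed the scaling (TMM of edgeR 4.0.16 in R 4.3.3), the filters, the limits of each class and the library. Other software was matplotlib 3.10.9, scipy 1.17.1, pandas 2.3.3 and numpy 2.4.6 under Python 3.11.15.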

Additional observations from a re-analysis of the deposited data

How the results depend on the processing

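Counts of members past the size rule were recomputed 260 times under other settings. They stayed within 1.5 times in 228, moved further in 32 and reversed in 0. For named genes, 139 of 390 mean log2 folds moved beyond their counting interval and 0 changed sign. In the Retnla contrast, the glycolytic count of 1 lower became 0 with TMM factors or with the total without surfactant genes and Retnla. It became 2 in library B alone, in library C alone or with the low class at 0 Retnla UMIs. The glycolytic count of 0 higher became 1 with no filter on low values or in B alone. The 4 lower HIF targets became 8 with the mean of per-cell CPM, 7 with no filter, in C alone or from 2% Retnla, and 2 at a minimum of 50 CPM. In dividing cells, 0 lower HIF targets became 1 without surfactant genes and Retnla in the total, with the per-cell mean, with no filter or in C alone. For Krt19, 3 higher HIF targets became 1 at 50 CPM, 6 in cells of 2000 to 10000 UMIs and 10 in C alone, and 0 higher glycolytic genes became 1 and 4 under the last pair. In nondividing cells with under 1% Retnla, 5 higher HIF targets became 8 with TMM factors or from 3 Krt19 UMIs, 3 at 50 CPM and 10 in C alone. There 0 higher glycolytic genes became 3 in C alone, and 1 with TMM factors, the per-cell mean, the top 5% of cells left out, 2000 to 10000 UMIs or 3 Krt19 UMIs. In the ranking by HIF targets, 0 lower became 1 in B alone. The cause of these moves was not tested. Leaving out cells with a barcode that libraries share, a setting chosen after seeing the data, moved no count beyond 1.5 times. No paired analysis was possible because the groups share fewer than 2 replicate numbers in the labels. Intervals are narrow at these depths and say nothing of the spread between mice.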
